A study of Mus musculus with 9 samples.

Results

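Spinal cord of mice with experimental autoimmune encephalomyelitis (EAE) given GV1001 was compared with spinal cord of mice with EAE given vehicle. The comparison used the 3 GV1001 and the 3 vehicle libraries named as such in the sample titles, 6 of the 9 libraries in the series, and was described over 15351 of 40879 gene symbols with enough counts to be tested. The other 3 libraries came from naive cord and serve here as a reference level. All mice were labelled wild type and all libraries whole spinal cord. The labels used here give no age, sex, dose, route, day of sampling or clinical score, and leave unstated whether replicates came from different animals, so p-values measure the spread between these samples, which may be technical.

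EAE models multiple sclerosis. An immune response against myelin brings lymphocytes and phagocytes into the cord, activates its microglia and astrocytes and damages oligodendrocytes and axons. GV1001 is a peptide taken from the catalytic protein of telomerase, the enzyme that extends chromosome ends. It was first used as a vaccine antigen and has since been studied for effects on inflammation. The title of the series names neuroinflammation and remyelination as its questions. Gene expression was read at the 3′ ends of messenger RNA in bulk tissue, in which fewer cells of a type and less RNA per cell cannot be told apart.

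The libraries held 5247246 to 6174870 counts each, and 3 counts in a library corresponded to 0.486 to 0.572 CPM (counts scaled to library size with TMM). RNA was extracted with TRIzol or a Maxwell kit, and which library had which is not stated, so extraction and group cannot be told apart. The tissue label fitted the markers, with 22 of 23 Hox genes of the cord tested and 7 of 14 forebrain genes. Neighbouring tissue was unequal. Genes of skeletal muscle held 0.0236% to 0.110% of counts in vehicle libraries, and 0.691%, 0.197% and 0.0904% in GV1001 replicates 1 to 3. Genes of Schwann cells, the glia of nerve roots, held 0.410%, 0.634% and 0.729% of vehicle replicates 1 to 3 and 0.646% to 0.770% of GV1001 libraries. These lists include genes that cord cells also express. The vehicle libraries varied more than the others, with a median standard deviation of log2 CPM of 0.264, against 0.216 in GV1001 and 0.163 in naive libraries.

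No gene passed between GV1001 and vehicle in edgeR's quasi-likelihood test at an adjusted p under 0.05 (0.0% of genes tested), and the smallest adjusted p was 0.528. At an unadjusted p under 0.05, 701 genes were higher (4.57%) and 693 lower (4.51%), which sums to 1394 genes. All 3 GV1001 libraries lay above all 3 vehicle libraries for 913 genes (5.95%) and below them for 701 (4.57%). The median log2 fold change over all genes was −0.01, with 7456 positive and 7895 negative values. Differences of at least 1 on the log2 scale were more often lower (531 genes) than higher (198 genes). limma-voom called 0 genes, with 1215 at an unadjusted p under 0.05. DESeq2, run without a filter on low counts and with an adjusted p for 15188 genes, called 10 genes higher (0.0658%) and 3 lower (0.0198%). Those called lower were Atf3, Lpl and Tent5c. Those called higher were Lypd1, Cdk5r2, Dact2, Scn11a and 6 genes that muscle expresses strongly or in part, Myh4, Mybpc2, Jsrp1, Casq1, Pygm and Tpm1. Every gene below is therefore given by its values, and none of the differences passed in edgeR.

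**Figure D1:**
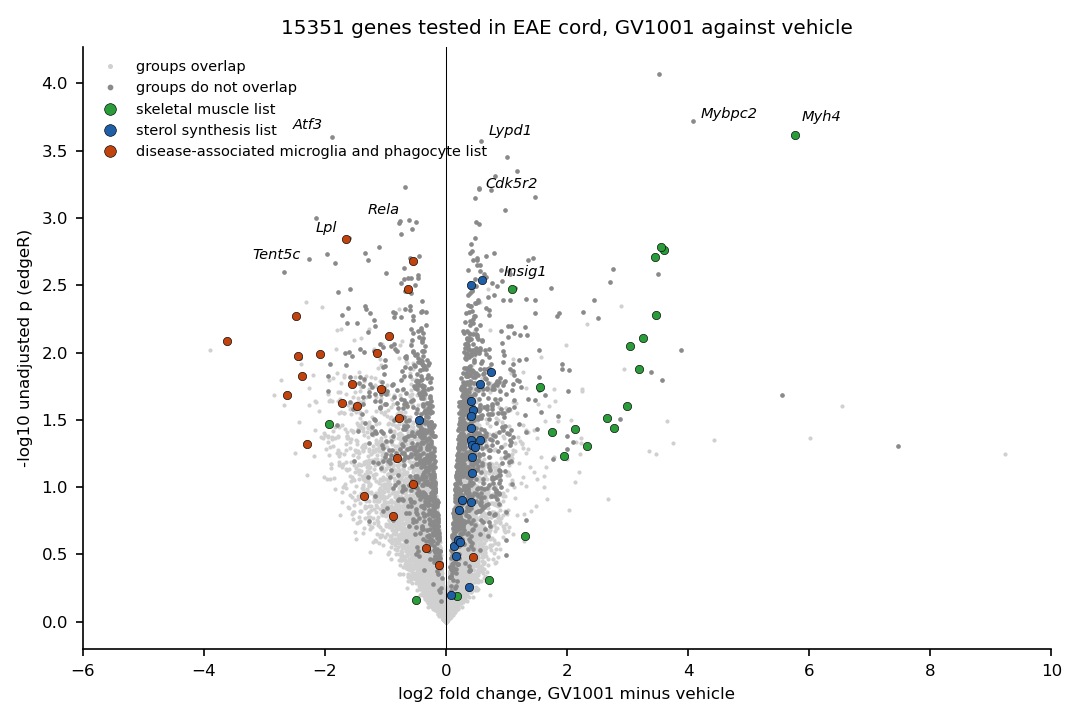
Each point is 1 of 15351 genes, with the log2 fold change of GV1001 minus vehicle on the x axis and −log10 of the unadjusted edgeR p on the y axis. Dark points are genes whose groups do not overlap, coloured points are members of 3 gene lists, and the muscle list holds the largest positive values among the lists shown.

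The genes that DESeq2 called lower with GV1001 are described first, followed by those with the smallest p among genes whose groups did not overlap. Atf3, a transcription factor induced by stress and nerve injury, was at 19.4, 9.20 and 13.1 CPM in vehicle replicates 1 to 3 and at 2.08, 5.08 and 4.04 CPM in GV1001 replicates 1 to 3. Every GV1001 library lay below every vehicle library and above the naive libraries, which held 0.724 to 1.05 CPM. The log2 fold change was −1.87 ± 0.35 (SE), with an adjusted p of 0.0289 in DESeq2. Lpl, lipoprotein lipase, which releases fatty acids from lipoproteins and is strongly expressed by lipid-laden microglia, was at 61.5, 25.4 and 88.8 CPM with vehicle and 24.6, 18.6 and 13.3 CPM with GV1001 (−1.65 ± 0.39). The groups did not overlap, but vehicle replicate 2 and GV1001 replicate 1 were nearly level. Tent5c, a poly(A) polymerase that stabilises messages of secreted proteins in plasma cells, was at 47.6, 13.5 and 16.1 CPM with vehicle and 3.03, 9.99 and 3.07 CPM with GV1001 (−2.25 ± 0.56, and −1.47 without vehicle replicate 1).

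Rela encodes the p65 subunit of NF-kB, a transcription factor of inflammatory genes. It was at 55.0, 44.5 and 61.3 CPM with vehicle and 36.5, 37.0 and 32.2 CPM with GV1001, a log2 fold change of −0.61 ± 0.14. The GV1001 libraries lay close to the naive range of 31.4 to 33.9 CPM. The small GTPase Nras was at 96.3, 85.3 and 85.6 CPM with vehicle and 61.1, 66.3 and 62.7 CPM with GV1001 (−0.49 ± 0.11). Its replicates were tight in both groups. Others among the 12 smallest p in this direction were Ntpcr (−0.68 ± 0.14), the mitochondrial tRNA-processing subunit Trmt10c (−0.75 ± 0.17), the lipid raft protein Rftn1 (−0.78 ± 0.18), the nuclear import receptor Tnpo1 (−0.56 ± 0.13), Pdlim4 (−0.74 ± 0.17) and the mitotic kinase Pbk (−1.96 ± 0.50). The groups did not overlap for any of these, as the rule for naming them required.

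The genes higher with GV1001 described next were chosen by the same rule, which favours tight replicates, and those of neighbouring tissues are given further on. Lypd1, a Ly6-family protein that binds nicotinic acetylcholine receptors, was at 36.7, 41.7 and 36.4 CPM with vehicle and 56.7, 55.9 and 59.4 CPM with GV1001 (0.58 ± 0.11). Replicates were tight in both groups, and the GV1001 libraries lay near the naive range of 57.5 to 66.6 CPM. Cdk5r2, an activator of the neuronal kinase Cdk5, was at 147, 187 and 160 CPM with vehicle and 215, 246 and 256 CPM with GV1001 (0.54 ± 0.11). Dact2, a regulator of Wnt and TGF-beta signalling, was at 8.15, 12.02 and 13.9 CPM with vehicle and 19.7, 26.6 and 30.9 CPM with GV1001 (1.18 ± 0.24). The naive libraries held 19.2 to 26.1 CPM of Dact2, so the vehicle libraries were the low ones. Spire2, an actin nucleator (0.82 ± 0.17), Fbxo31, a ubiquitin ligase subunit (0.48 ± 0.10), and Tspan17, a tetraspanin (0.55 ± 0.12), were also higher in every GV1001 library than in any vehicle library. Tinagl1, a matrix glycoprotein, was at 7.04 to 11.5 CPM with vehicle and 18.4 to 20.1 CPM with GV1001 (1.00 ± 0.20), above its naive range of 11.2 to 12.03 CPM. Mpzl2, an epithelial adhesion protein, was at 3.19 to 5.25 CPM with vehicle and 10.2 to 13.5 CPM with GV1001 (1.47 ± 0.31).

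**Figure D2:**
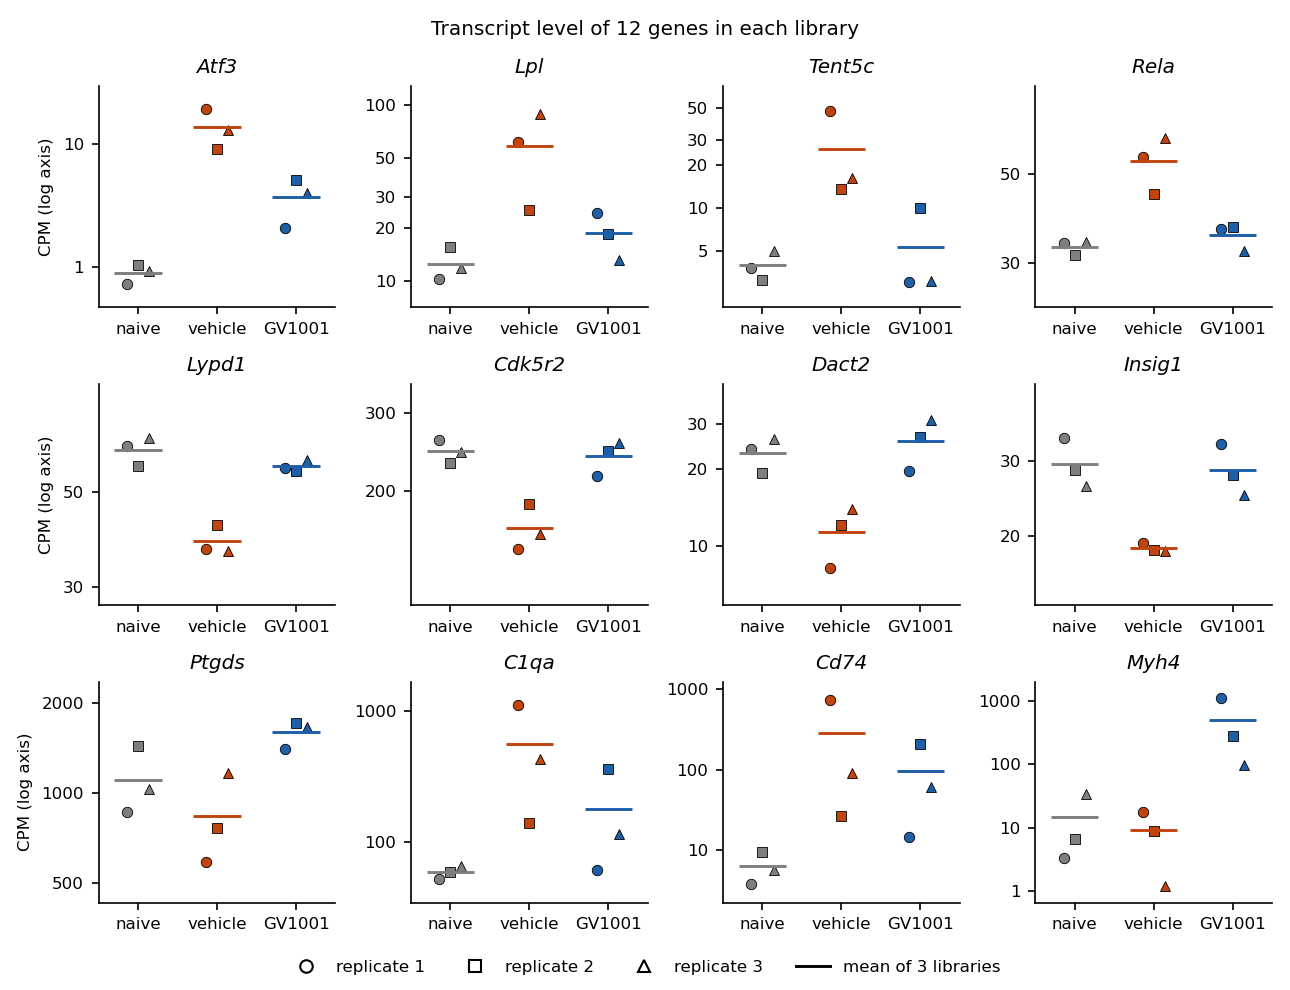
CPM of 12 genes on log axes in each library, with 1 point per library (circle, square and triangle for replicates 1, 2 and 3) and a bar at the mean of the group. Atf3, Lpl, Tent5c and Rela lie lower and Lypd1, Cdk5r2, Dact2, Insig1, Ptgds and Myh4 higher in all 3 GV1001 libraries than in any vehicle library, while C1qa and Cd74 overlap.

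Cholesterol synthesis in the cord is carried out largely by oligodendrocytes, which need sterols for myelin, and by astrocytes. Of 24 tested members of the sterol synthesis list, 23 were positive. The groups did not overlap for 4, all higher (16.7%, against 5.95% of all genes). At an unadjusted p under 0.05, 11 were higher (45.8%, against 4.57%) and 1 lower (4.17%, against 4.51%). The 1 lower was Ebp, a sterol isomerase named here after its values were seen. The median log2 fold change was 0.42, against −0.01 over all genes. Insig1, a sensor that holds the sterol-regulated transcription factors in the endoplasmic reticulum and is itself induced by them, was at 19.2, 18.6 and 18.5 CPM with vehicle and 32.9, 27.9 and 25.1 CPM with GV1001 (0.60 ± 0.16). The vehicle libraries were almost level, and the GV1001 libraries lay close to the naive range of 26.3 to 34.0 CPM. Tm7sf2, a sterol reductase, was at 4.44, 7.14 and 4.74 CPM with vehicle and 7.94, 9.11 and 10.03 CPM with GV1001 (0.74 ± 0.25). Hmgcs1, the synthase before the rate-limiting step, overlapped, at 313, 506 and 311 CPM with vehicle and 519, 492 and 501 CPM with GV1001 (0.42 ± 0.18). Vehicle replicate 2 was within the GV1001 range for Hmgcs1. The count of members at an unadjusted p under 0.05 in this direction was 2 without vehicle replicate 3 and 16 without vehicle replicate 2, against 3.60% and 7.04% of all genes in those fits. The list median stayed between 0.26 and 0.49 with any EAE library left out.

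Because these genes share known regulators, their promoters were read from RefSeq (GRCm38.p6, an earlier build than the GRCm39 named in the submitters' processing notes), which had an entry for 17 of the 25 listed genes. The promoters run from 250 bases before the start to 50 bases after it. A CCAAT box, the site of factors that cooperate with sterol-regulated transcription factors, was searched as CCAAT on both strands and was present for 16 of 17 genes (94.1%), against 41.1% of 27025 genes with an entry. A gene with several entries counted as having a motif where any of them held it, and for some of the 16 not every entry did. The sterol response element, searched as TCACCCCAC on both strands, was present for 1 of 17 genes, against 0.614% of genes, and the cyclic AMP element TGACGTCA in 0 of 17, against 2.03%. A match describes letters and not a bound site. The promoters of Hmgcs1, which held both kinds of match, and of Insig1 are shown with matches to either motif in capitals. Insig1 had the smallest p among the members whose groups did not overlap.
Hmgcs1 promoter, chr13:119690101-119690400, plus strand: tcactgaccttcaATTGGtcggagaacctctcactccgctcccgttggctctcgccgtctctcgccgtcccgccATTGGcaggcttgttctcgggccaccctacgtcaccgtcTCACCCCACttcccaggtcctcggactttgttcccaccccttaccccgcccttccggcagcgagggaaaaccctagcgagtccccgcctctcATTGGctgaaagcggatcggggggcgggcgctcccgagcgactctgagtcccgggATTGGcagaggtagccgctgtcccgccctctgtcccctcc
Insig1 promoter, chr5:28071162-28071461, plus strand: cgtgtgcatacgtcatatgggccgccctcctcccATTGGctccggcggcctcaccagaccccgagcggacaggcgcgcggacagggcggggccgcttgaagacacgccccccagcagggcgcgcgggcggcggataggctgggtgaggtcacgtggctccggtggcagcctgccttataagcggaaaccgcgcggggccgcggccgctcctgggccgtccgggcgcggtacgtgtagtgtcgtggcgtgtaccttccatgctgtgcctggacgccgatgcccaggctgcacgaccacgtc
In the first sequence the capital run that begins with T is the sterol response element, and the capital runs that begin with A are CCAAT boxes on the opposite strand.

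Of 14 tested fatty acid synthesis genes, 12 were positive with a median of 0.12, which was 0.061 without vehicle replicate 1 and 0.22 without vehicle replicate 2. At an unadjusted p under 0.05, 1 was higher (7.14%, against 4.57% of all genes), and 3 were higher without overlap (21.4%, against 5.95%). These were the desaturase Scd1 (132, 116 and 119 CPM with vehicle, 140, 157 and 172 CPM with GV1001, 0.35 ± 0.11), the citrate lyase Acly (0.21 ± 0.09) and the desaturase Fads2 (0.18 ± 0.09). Genes of lipid efflux, uptake and storage, which microglia and macrophages use to clear myelin debris, lay on the other side. Of 20 tested members, 19 were negative, with a median of −0.95. At an unadjusted p under 0.05, 11 were lower (55.0%, against 4.51% of all genes). Lower without overlap were 2 of the 20, against 4.57% of all genes. The groups overlapped for all but Lpl, given above, and the sterol exporter Abcg1 (71.8, 62.0 and 80.7 CPM with vehicle, 46.5, 61.2 and 54.2 CPM with GV1001, −0.41 ± 0.13). Apoe, the main lipoprotein of the nervous system, was at 4579, 1418 and 5396 CPM with vehicle and 1294, 2355 and 1777 CPM with GV1001 (−1.07 ± 0.39). Vehicle replicates 1 and 3 were high, and vehicle replicate 2 was at the naive level of 1306 to 1419 CPM. Without vehicle replicate 1 the median of this list was −0.29.

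Microglia are the resident phagocytes of the cord. In disease they lower some homeostatic genes and raise a programme of lipid, lysosomal and phagocytic genes. Of 24 tested members of the disease-associated microglia and phagocyte list, 23 were negative, with a median of −1.24. At an unadjusted p under 0.05, 17 were lower (70.8%, against 4.51% of all genes). The share lower without overlap was 8.33%, against 4.57%. Only Lpl and the fatty acid carrier Fabp5 (173, 120 and 139 CPM with vehicle, 107, 100 and 89.1 CPM with GV1001, −0.54 ± 0.14) did not overlap between the groups. Gpnmb, a glycoprotein of lipid-loaded phagocytes, had the largest difference in the list and overlapped. It was at 288, 1.503 and 132 CPM with vehicle and 2.84, 27.0 and 4.69 CPM with GV1001 (−3.61 ± 1.12), and was named after its values were seen. Vehicle replicates 1 and 3 were high, vehicle replicate 2 was below the naive range of 2.17 to 3.70 CPM, and GV1001 replicate 2 was the highest of its group. Without vehicle replicate 2, edgeR called 8 genes lower at an adjusted p under 0.05, which were Gpnmb, Spp1, Apoe, Lpl, Abca1, Ms4a7, Sirpa and A630001G21Rik. That fit had 10.2% of all genes lower at an unadjusted p under 0.05. Without vehicle replicate 1, 9 members of the list were at that threshold, against 2.62% of genes, and the median was −0.62.

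Homeostatic microglial genes lay on the same side. Of 17 tested members, 15 were negative, with a median of −0.77, and −0.32 without vehicle replicate 1. At an unadjusted p under 0.05, 8 were lower (47.1%, against 4.51% of all genes). The share lower without overlap was 17.65%, against 4.57%. The ADP receptor P2ry13 was at 45.5, 17.7 and 22.4 CPM with vehicle and 9.46, 15.9 and 8.41 CPM with GV1001 (−1.34 ± 0.37). Mertk, a receptor for dying cells, was at 106, 49.0 and 66.4 CPM with vehicle and 41.4, 46.8 and 32.3 CPM with GV1001 (−0.88 ± 0.25). Fcrl2, a microglial Fc receptor-like gene, was at 32.8, 21.4 and 30.7 CPM with vehicle and 7.38, 15.6 and 16.2 CPM with GV1001 (−1.10 ± 0.26). For these 3 genes no GV1001 library reached the lowest vehicle library. The ADP receptor P2ry12, often used to mark resting microglia, overlapped, at 22.8, 15.03 and 12.7 CPM with vehicle and 11.7, 14.02 and 11.8 CPM with GV1001 (−0.42 ± 0.25). The values without vehicle replicate 1 were −0.84 for P2ry13, −0.53 for Mertk and −0.14 for P2ry12.

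Lysosomal genes went with the phagocyte genes. Of 37 tested members, 34 were negative, with a median of −0.55. At an unadjusted p under 0.05, 18 were lower (48.65%, against 4.51% of all genes). The share lower without overlap was 8.11%, against 4.57%. Psap, the precursor of activators of sphingolipid breakdown, was at 3037, 2190 and 2268 CPM with vehicle and 2063, 1844 and 1528 CPM with GV1001 (−0.46 ± 0.15). The peptidase Tpp1 was at 260, 186 and 261 CPM with vehicle and 174, 180 and 177 CPM with GV1001 (−0.41 ± 0.12). The groups did not overlap for either of them or for the ceramidase Asah1 (−0.39 ± 0.17). Without vehicle replicate 1, 4 members were lower at that unadjusted p, against 2.62% of all genes. The median was then −0.19, with Psap at −0.30 and Asah1 at −0.17. Neat1, a nuclear noncoding RNA that forms paraspeckles, was at 874, 508 and 519 CPM with vehicle and 384, 424 and 328 CPM with GV1001 (−0.74 ± 0.20, and −0.44 without vehicle replicate 1), with no overlap.

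Genes of antigen presentation, interferon response and innate signalling were lower on average, but libraries of both groups were interleaved, in much the same order from list to list. Of 20 immune and microglial lists, 19 scored highest in vehicle replicate 1 and 19 lowest in GV1001 replicate 1, where the score is the mean log2 CPM of the members relative to naive cord. GV1001 replicate 2 scored above vehicle replicate 2 in 19 of the 20 lists and above vehicle replicate 3 in 16. The class II presentation list, which loads peptides for CD4 T cells, scored 5.33, 1.73 and 2.87 in vehicle replicates 1 to 3 and 0.83, 3.75 and 2.15 in GV1001 replicates 1 to 3. All 13 tested members were negative, with a median of −1.53. Only the protease Ctss was lower at an unadjusted p under 0.05 (7.69%, against 4.51% of all genes). Cd74, the invariant chain that guides class II molecules, had 724 CPM in vehicle replicate 1 and 210 CPM in GV1001 replicate 2, with the other EAE libraries between 14.6 and 89.5 CPM. Without vehicle replicate 1 the median was 0.18, and medians of 10 of the 20 lists were positive. The list of interferon gamma GTPases, which attack intracellular microbes, had 13 of 13 members negative. At an unadjusted p under 0.05, 0 of them were lower (against 4.51% of all genes). The median was −1.12, which became 0.27 without vehicle replicate 1. The type I interferon list had a median of −0.76, which became 0.35.

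**Figure D3:**
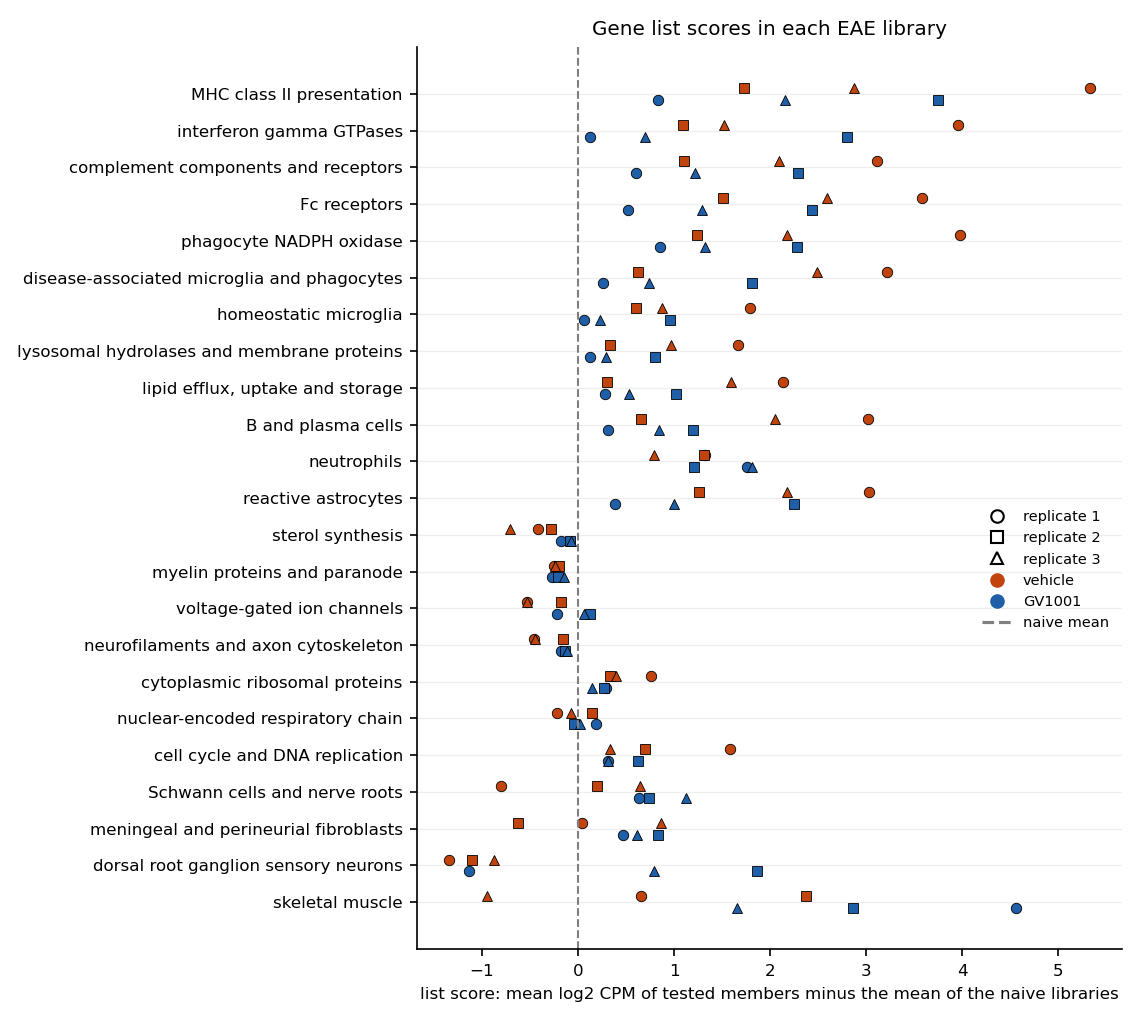
List scores in each EAE library on the x axis, with vehicle in orange, GV1001 in blue and a symbol per replicate, and with 0 at the naive mean. Most immune and microglial lists run from GV1001 replicate 1 to vehicle replicate 1 with the other libraries between them. Sterol synthesis and ribosomal scores separate the groups by small amounts. Of all 61 list scores, 3 lay higher and 2 lower in every GV1001 library than in any vehicle library. Single genes did so for 5.95% and 4.57%.

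Within these lists the genes with separated groups were few. The monocyte-attracting chemokine Ccl12 was at 27.4, 21.6 and 19.0 CPM with vehicle and 5.48, 17.4 and 6.79 CPM with GV1001 (−1.19 ± 0.35). It was 1 of 22 tested chemokine and receptor genes lower without overlap (4.545%, against 4.57% of all genes). The list had a median of −1.27, which became 0.10 without vehicle replicate 1 and −0.56 without GV1001 replicate 1. Ackr1, an endothelial chemokine scavenger, was higher without overlap, at 81.3 to 93.9 CPM with vehicle and 95.9 to 119 CPM with GV1001 (0.28 ± 0.11). In the complement list 18 of 20 tested members were negative, with a median of −1.08, and −0.20 without vehicle replicate 1. At an unadjusted p under 0.05, 9 were lower (45.0%, against 4.51% of all genes). C1qa, a chain of the first component, was at 1106, 139 and 426 CPM with vehicle and 60.3, 361 and 115 CPM with GV1001, so the groups overlapped (−1.64 ± 0.70, and −0.66 without vehicle replicate 1). Cd55, which disarms complement on the cell surface, was at 6.48, 7.33 and 7.96 CPM with vehicle and 8.51, 21.6 and 17.0 CPM with GV1001 (1.12 ± 0.40). Its groups did not overlap, and the naive libraries held 10.3 to 23.9 CPM.

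Of 8 tested genes of the phagocyte NADPH oxidase, which makes superoxide, 8 were negative with a median of −1.41, which was −0.093 without vehicle replicate 1. Cybb, its catalytic subunit, was at 490, 22.5 and 68.5 CPM with vehicle and 15.3, 107 and 32.8 CPM with GV1001 (−1.90 ± 0.94, and 0.17 without vehicle replicate 1). The chaperone Cybc1 was the member without overlap (−0.36 ± 0.15). Fc receptor genes had a median of −1.42 (−0.52 without that library), with their common signalling chain Fcer1g at 351, 55.8 and 124 CPM with vehicle and 19.9, 106 and 34.4 CPM with GV1001. In the list of inflammasome and interleukin 1 genes, 14 of 14 were negative with a median of −1.04, and −0.24 without it. Il33, an alarmin that oligodendrocytes and astrocytes of the cord hold in the nucleus, was at 119, 104 and 133 CPM with vehicle and 89.1, 85.9 and 82.8 CPM with GV1001 (−0.47 ± 0.12). The GV1001 libraries were tight and inside the naive range of 76.7 to 95.8 CPM. Il1rap, the shared receptor subunit for interleukin 1 and interleukin 33, was also lower without overlap (−0.27 ± 0.13).

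Lymphocyte genes were scarce. Of 30 T cell genes 8 had enough counts to be tested, and of these 7 were negative, with a median of −0.97 that became 0.16 without vehicle replicate 1. Of 16 B and plasma cell genes 8 were tested and all 8 were negative, with a median of −1.61, and −0.84 without vehicle replicate 1. Jchain, which joins secreted antibodies, was at 19.99, 2.63 and 3.90 CPM with vehicle and 0.567, 2.28 and 1.94 CPM with GV1001 (−2.41 ± 0.79). Its groups did not overlap, though vehicle replicate 1 stood far above the other libraries, and the value was −1.01 without it. Tnfsf14, a cytokine of activated T cells, was too low to be tested, with 6, 3 and 4 counts in vehicle replicates 1 to 3 against 0, 1 and 0 counts in GV1001 replicates 1 to 3. The ratio of vehicle to GV1001 was 13.5, with an exact 95% Poisson interval of 2.02 to 572 that covers counting error only. The gene was picked for having 3 or more counts in each vehicle library and at most 1 count over the GV1001 group. That choice makes the ratio large in advance, so the ratio is only a description. Neutrophil genes were the exception to the direction of the immune lists, with 8 of 11 tested members positive and a median of 0.77, from 0.51 to 1.11 with any EAE library left out. The granule protein S100a9 was at 91.1, 141 and 47.1 CPM with vehicle and 148, 100 and 200 CPM with GV1001, and overlapped (0.69 ± 0.47).

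Reactive astrocyte genes, which astrocytes raise on injury, had the same highest and lowest library as most immune lists. Of 28 tested members, 25 were negative, with a median of −1.02, and −0.25 without vehicle replicate 1. At an unadjusted p under 0.05, 8 were lower (28.6%, against 4.51% of all genes). The groups overlapped for every member. The intermediate filament gene Gfap was at 1647, 779 and 1307 CPM with vehicle and 429, 1201 and 850 CPM with GV1001 (−0.59 ± 0.34). GV1001 replicate 1 lay below the naive range of 560 to 825 CPM for Gfap. The zinc-binding metallothionein Mt2 was at 3959, 2292 and 4035 CPM with vehicle and 2056, 2864 and 1906 CPM with GV1001 (−0.59 ± 0.22), and overlapped. Genes of astrocyte homeostasis such as transporters and water channels had a median of −0.06, with 8 of 20 positive.

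Myelin genes showed no shift as a list. Of 25 tested members, 14 were positive and 11 negative, with a median of 0.02. At an unadjusted p under 0.05, 1 was higher (4.0%, against 4.57% of all genes). Lower at that threshold were 2, Myrf and Car2 (8.0%, against 4.51%). Mbp, a major myelin protein, was at 6549, 8851 and 8065 CPM with vehicle and 7586, 7893 and 8806 CPM with GV1001 (0.05 ± 0.15). Mog, a surface antigen of the sheath, was at 0.08 ± 0.12. Myrf, the transcription factor that switches on myelin genes, was at 103, 105 and 103 CPM with vehicle and 88.3, 92.2 and 81.8 CPM with GV1001 (−0.25 ± 0.09). The vehicle libraries were almost level and all above the GV1001 libraries and the naive range of 93.4 to 97.8 CPM. Car2, a carbonic anhydrase of oligodendrocytes, was at 381, 394 and 331 CPM with vehicle and 324, 260 and 286 CPM with GV1001 (−0.35 ± 0.11). Gsn, an actin-severing protein, was higher without overlap (0.23 ± 0.15). Of 20 genes of oligodendrocyte precursors and their differentiation, 6 were positive and 14 negative, with a median of −0.14. At an unadjusted p under 0.05 in edgeR, 0 were higher (against 4.57% of all genes) and 0 lower (against 4.51%). Without overlap, 0 were higher (against 5.95%) and 0 lower (against 4.57%). With 20 genes, counts of 0 lie near those shares.

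Neuronal genes were mostly positive by small amounts. Genes of neurofilaments and the axon cytoskeleton were positive for 21 of 21 tested members, with a median of 0.19. At an unadjusted p under 0.05, 5 were higher (23.8%, against 4.57% of all genes). Higher without overlap were also 5 (23.8%, against 5.95%). Sptan1, the alpha spectrin of the membrane skeleton, was at 219, 223 and 243 CPM with vehicle and 274, 305 and 321 CPM with GV1001 (0.39 ± 0.10). Sptbn4, the beta spectrin of the axon initial segment and nodes of Ranvier, was at 22.4, 25.7 and 24.1 CPM with vehicle and 32.9, 32.4 and 32.7 CPM with GV1001 (0.44 ± 0.13). Ank3, the ankyrin that anchors sodium channels at those sites, was at 716, 800 and 737 CPM with vehicle and 836, 901 and 950 CPM with GV1001 (0.25 ± 0.09). Every vehicle library was below the naive range for these 3 genes, and the GV1001 libraries lay below it for Sptbn4 and Ank3 and around it for Sptan1. In the core neuron and synapse list 27 of 29 were positive with a median of 0.21. At an unadjusted p under 0.05, 5 were higher (17.2%, against 4.57% of all genes). Higher without overlap were 3 (10.3%, against 5.95%). These were the kinase Camk2a (0.37 ± 0.12), the RNA-binding protein Elavl4 (0.40 ± 0.14) and the calmodulin-binding protein Nrgn (0.31 ± 0.12). Without vehicle replicate 3, the axon list had 2 members at that threshold and the core list 1, against 3.60% of all genes.

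Voltage-gated ion channels set the firing of neurons. Of 40 tested members, 37 were positive, with a median of 0.19. At an unadjusted p under 0.05, 10 were higher (25.0%, against 4.57% of all genes). Higher without overlap were 5 (12.5%, against 5.95%). The sodium channel Scn1a (0.24 ± 0.10) was among those higher without overlap. Scn11a, a sodium channel of pain-sensing neurons of the dorsal root ganglia, was different, with 0 counts in each vehicle library and 0, 170 and 62 counts in the GV1001 libraries. Against 3 counts over the vehicle group this is at least 74.7-fold higher, with an adjusted p of 9.55e-05 in DESeq2, but GV1001 replicate 1 had 0 counts and naive replicate 2 had 224 while the other naive libraries had 0. Counts of ion channel members at the threshold were 3 without vehicle replicate 3 and 22 without vehicle replicate 2, against 3.60% and 7.04% of all genes.

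Among receptors for glutamate, GABA and glycine, 32 of 36 tested members were positive, with a median of 0.16. Higher without overlap were 6 (16.7%, against 5.95% of all genes). The GABA-A receptor subunit Gabrg3 was at 8.52, 8.26 and 10.7 CPM with vehicle and 15.1, 12.8 and 15.5 CPM with GV1001 (0.66 ± 0.18). The kainate receptor subunit Grik5 (0.40 ± 0.14) was separated too. Of interneuron markers, the neuropeptide genes Sst (94.4, 120 and 94.2 CPM with vehicle, 133, 146 and 153 CPM with GV1001, 0.49 ± 0.13) and Tac2 (0.39 ± 0.15) did not overlap. Pvalb, a calcium buffer of interneurons and of fast muscle fibres, was at 160, 229 and 169 CPM with vehicle and 636, 274 and 276 CPM with GV1001, and its highest library was also the one with the most muscle transcripts. A list built around Lypd1, with other Ly6-family and nicotinic receptor genes, was drawn up because Lypd1 was among the smallest p here, so its count is a description. Of its 22 genes 9 were tested, and 5 of them, Lypd1 included, were higher without overlap, against 5.95% of all genes. Tmem35a, a chaperone of nicotinic receptors, was at 90.0, 97.1 and 76.1 CPM with vehicle and 105, 124 and 126 CPM with GV1001 (0.43 ± 0.11). Ache, acetylcholinesterase, was at 42.6, 56.7 and 61.7 CPM with vehicle and 66.4, 68.5 and 77.8 CPM with GV1001 (0.40 ± 0.14).

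Motor neuron genes had a median of 0.22, with 13 of 15 tested members positive, and Chat, the enzyme that makes acetylcholine, was at 14.8, 21.8 and 16.1 CPM with vehicle and 18.9, 21.0 and 24.7 CPM with GV1001 (0.30 ± 0.18). The largest values in this list belonged to genes that ganglion neurons also express. Isl2 was at 2.82 to 3.15 CPM with vehicle and at 5.11, 22.96 and 7.6 CPM with GV1001, and at 2.17, 24.8 and 3.89 CPM in the naive libraries. Calca, a neuropeptide precursor, was at 45.8, 142 and 61.8 CPM with GV1001 and 52.7, 149 and 48.3 CPM in naive cord. Naive replicate 2 and GV1001 replicate 2 were the highest libraries for both of these genes, as they were for Scn11a. All 14 tested members of the ganglion list were positive, with a median of 1.56, but its score in GV1001 replicate 1 (−1.14) lay within the vehicle range of −1.34 to −0.88. The median was 0.95 without GV1001 replicate 2, 2.54 without vehicle replicate 3 and 0.74 in the 6 EAE libraries alone. The part of ganglion tissue in the motor neuron and trophic factor values was not tested. Of 28 neurotrophic and growth factor genes tested, 22 were positive with a median of 0.24, among them Fgf1 (0.29 ± 0.12) and Vegfb (0.27 ± 0.11), both higher without overlap.

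Endothelial genes of the blood-brain barrier were positive for 20 of 28 tested members, with a median of 0.14 and values from −1.09 to 0.56. At an unadjusted p under 0.05, 2 were higher (7.14%, against 4.57% of all genes) and 0 lower (against 4.51%). Without overlap, 3 were higher (10.7%, against 5.95%) and 1 lower (3.57%, against 4.57%). The surface antigen Ly6c1 was at 50.9, 53.5 and 44.6 CPM with vehicle and 61.1, 68.9 and 63.7 CPM with GV1001 (0.38 ± 0.13). The thyroid hormone transporter Slco1c1 was at 17.6, 17.3 and 19.3 CPM with vehicle and 21.4, 22.8 and 25.1 CPM with GV1001 (0.35 ± 0.14), and the drug efflux pump Abcb1a (0.22 ± 0.11) was also higher without overlap. Slco1c1 was below its naive range of 25.9 to 27.5 CPM in all 6 EAE libraries. Activated endothelial genes had a median of −0.06. Among matrix metalloproteinases and related genes, with a median of 0.00, Mmp15 was higher (0.39 ± 0.15) and the aggrecanase Adamts4 lower (−0.19 ± 0.09) without overlap. Collagens and matrix genes had a median of 0.09, from −0.18 to 0.32 with any EAE library left out. Genes of motile cilia of the ependyma had a median of −0.15, with Cfap126 at −1.002 ± 0.382 and Odf3b at 0.91 ± 0.35, both without overlap and both at a low level.

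Genes of cytoplasmic ribosomal proteins were negative for 49 of 50 tested members, with a median of −0.27. At an unadjusted p under 0.05, 13 were lower (26.0%, against 4.51% of all genes). Lower without overlap were 12 (24.0%, against 4.57%). Rps18 was at 176, 120 and 143 CPM with vehicle and 108, 107 and 91.2 CPM with GV1001 (−0.52 ± 0.14). Rpl3 was at 220, 200 and 219 CPM with vehicle and 185, 161 and 142 CPM with GV1001 (−0.39 ± 0.11), and Rpl23 at 323, 313 and 284 CPM against 270, 225 and 177 CPM (−0.45 ± 0.14). Reads of these genes may be shared with near-identical copies elsewhere in the genome, which makes single values uncertain. Without vehicle replicate 1 the median was −0.12 and 7 members were at the threshold, against 2.62% of all genes. Nuclear-encoded genes of the respiratory chain were positive for 50 of 55, with a median of 0.10. It was 0.013 without vehicle replicate 1 and 0.19 without vehicle replicate 2. Only 4 were higher without overlap (7.27%), near the 5.95% of all genes, among them the complex I subunits Ndufv1 (0.25 ± 0.09) and Ndufs8 (0.31 ± 0.11).

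Genes of the cell cycle and DNA replication were negative for 24 of 26 tested members, with a median of −0.50 that was −0.14 without vehicle replicate 1. The mitotic kinase Cdk1 was at 19.1, 8.83 and 6.10 CPM with vehicle and 2.46, 3.33 and 5.01 CPM with GV1001 (−1.62 ± 0.45, and −1.02 without vehicle replicate 1), against 2.61 to 4.16 CPM in naive cord. The spindle checkpoint kinase Bub1b was at 8.52, 6.01 and 6.95 CPM with vehicle and 2.46, 3.68 and 2.43 CPM with GV1001 (−1.32 ± 0.37). The chromatin protein Hmgb2 was also lower without overlap (−0.53 ± 0.23). Of 18 tested genes of telomerase and telomere protection, 12 were negative with a median of −0.15. Terf1, which binds telomeric repeats, was at 11.5, 10.7 and 11.01 CPM with vehicle and 8.89, 7.71 and 7.6 CPM with GV1001 (−0.46 ± 0.19). Tert, which encodes the protein GV1001 is taken from, had too few counts to be tested.

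Of stress programmes other than Atf3, the nerve injury, immediate early, heat shock and glucocorticoid lists gave no common direction. The metallothionein and antioxidant list had 17 of 26 tested members negative, with a median of −0.15, and −0.015 without vehicle replicate 1. The list of STAT3 and interleukin 6 family responses had 15 of 19 negative, with a median of −0.64, and −0.052 without that library. The nerve injury and integrated stress list had 12 of 25 tested members positive and a median of −0.02, with Atf3 and the neural transcription factor Sox11 (−0.21 ± 0.11) lower without overlap and the tubulin-binding protein Stmn4 higher (0.33 ± 0.11). Immediate early genes had a median of −0.08. At an unadjusted p under 0.05 in edgeR were 0 of 26, against 4.57% of all genes higher and 4.51% lower. Without overlap, 2 were higher (7.69%, against 5.95% of all genes) and 1 lower (3.85%, against 4.57%). The lower one was Fos, at 15.2, 14.8 and 17.3 CPM with vehicle and 14.2, 12.1 and 11 CPM with GV1001 (−0.35 ± 0.18). The higher ones were the nuclear receptor Nr4a2, at 10.5 to 13.9 CPM with vehicle and 14.6 to 17.0 CPM with GV1001 (0.37 ± 0.21), and the zinc finger factor Egr2, at 7.51 to 11.2 CPM with vehicle and 11.4 to 16.2 CPM with GV1001 (0.42 ± 0.26). Of heat shock and unfolded protein genes, with a median of −0.06, the cytosolic chaperone partner Dnajb1 was higher (0.38 ± 0.12) and the endoplasmic reticulum disulfide isomerase Pdia6 lower (−0.30 ± 0.11), both without overlap. Genes responsive to glucocorticoids had a median of −0.02. Hox genes of the cord had a median of 0.00, with Hoxb9 higher without overlap (0.50 ± 0.13). Among forebrain genes, Drd2, a dopamine receptor, was at 2.78, 5.82 and 4.57 CPM with vehicle and 6.24, 10.3 and 11 CPM with GV1001 (1.07 ± 0.32), against 9.06 to 11.6 CPM in naive cord.

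Transcripts of neighbouring tissues gave the largest positive differences. Of 22 tested skeletal muscle genes, 20 were positive, with a median of 2.49. Higher without overlap were 5 (22.7%, against 5.95% of all genes). At an unadjusted p under 0.05, 16 were higher (72.7%, against 4.57%). Without GV1001 replicate 1 the median was 1.14 and 6 members were higher at that threshold, against 5.08% of all genes. Without vehicle replicate 2 the median was 3.81. The fast myosin Myh4 was at 17.4, 8.83 and 1.19 CPM with vehicle and 1101, 283 and 97.5 CPM with GV1001 (5.77 ± 1.07). Mybpc2, a myosin-binding protein of fast fibres, was at 1.48, 3.00 and 0.508 CPM with vehicle and 51.1, 24.4 and 9.54 CPM with GV1001 (4.08 ± 0.73). Jsrp1, of the muscle calcium release complex, was at 0.169 to 0.564 CPM with vehicle and 2.43 to 7.19 CPM with GV1001 (3.51 ± 0.61). The naive libraries held 3.26 to 34.0 CPM of Myh4, so muscle transcripts were not absent from untreated cord. Myl1 (3.55 ± 0.85) and Actn3 (3.61 ± 0.87) lay in the same order among the GV1001 libraries, and so did Casq1 (2.44 ± 0.67) and Tpm1 (1.06 ± 0.27), which were 1.31 and 0.61 without GV1001 replicate 1. The glycogen phosphorylase Pygm, which astrocytes also express, was at 53.5, 65.5 and 57.3 CPM with vehicle and 124, 83.1 and 88.9 CPM with GV1001 (0.75 ± 0.16).

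Of 18 tested Schwann cell genes, 15 were positive, with a median of 0.79, and 0.46 without vehicle replicate 1. Higher without overlap were 8 (44.4%, against 5.95% of all genes). At an unadjusted p under 0.05, 7 were higher (38.9%, against 4.57%). Without GV1001 replicate 3 this count was 2, against 2.46% of all genes. Drp2, which links the Schwann cell to its matrix, was at 58.3, 86.2 and 100 CPM with vehicle and 110, 136 and 182 CPM with GV1001 (0.80 ± 0.22). The Schwann cell signal Dhh (1.32 ± 0.43) and Mlip (1.3 ± 0.39) did not overlap either. Of 19 meningeal and perineurial genes tested, Ptgds, a prostaglandin synthase of the meninges and oligodendrocytes, was at 587, 760 and 1163 CPM with vehicle and 1405, 1719 and 1663 CPM with GV1001 (0.93 ± 0.24). The organic anion transporter Slc22a6 was also higher without overlap, at 0 to 1.86 CPM with vehicle and 2.65 to 6.31 CPM with GV1001. The hemoglobin gene Hbb-bs, which has near-identical copies, was at 1766 CPM in vehicle replicate 2 and 114 to 261 CPM in the other EAE libraries. The erythrocyte list had a median of −1.45 that was 0.22 without it.

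Vehicle replicate 1 had the lowest Schwann cell score (−0.80) and the highest immune scores, and GV1001 replicate 1 had the highest muscle score (4.56) and the lowest immune scores. With muscle and Schwann cell scores added to the fit as covariates, 20 of 20 immune and microglial list medians were positive, from 0.16 to 3.27, and 40 of 61 list medians changed sign. The scores differ between the groups and the fit rests on 9 libraries, so neighbouring tissue and treatment could not be told apart. In that fit edgeR called 2 genes of muscle, Myh4 higher and Myh2 lower. Myh4 is in the list behind the muscle score, so its call is not independent of that covariate. The log2 fold changes in the covariate fit were −0.70 for Atf3 (−1.87 in the main fit), −0.96 for Lpl (−1.65) and −0.67 for Tent5c (−2.25). They were 0.42 for Lypd1 (0.58 in the main fit) and 0.72 for Insig1 (0.60). The sterol list had a median of 0.31 (0.42 in the main fit). In that fit the medians were 0.04 for the axon cytoskeleton list, 0.01 for ion channels and −0.08 for the core neuron list. Single libraries also moved the values. Of 61 list medians, 16 had the other sign and 32 more moved by over 1.5 times without vehicle replicate 1, with core neuron genes at 0.11, neurotransmitter receptors at 0.084, trophic factors at 0.11 and cilia at 0.012. The median of barrier endothelium was 0.045 without GV1001 replicate 3, and that of motor neuron genes 0.42 without vehicle replicate 2.

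**Figure D4:**
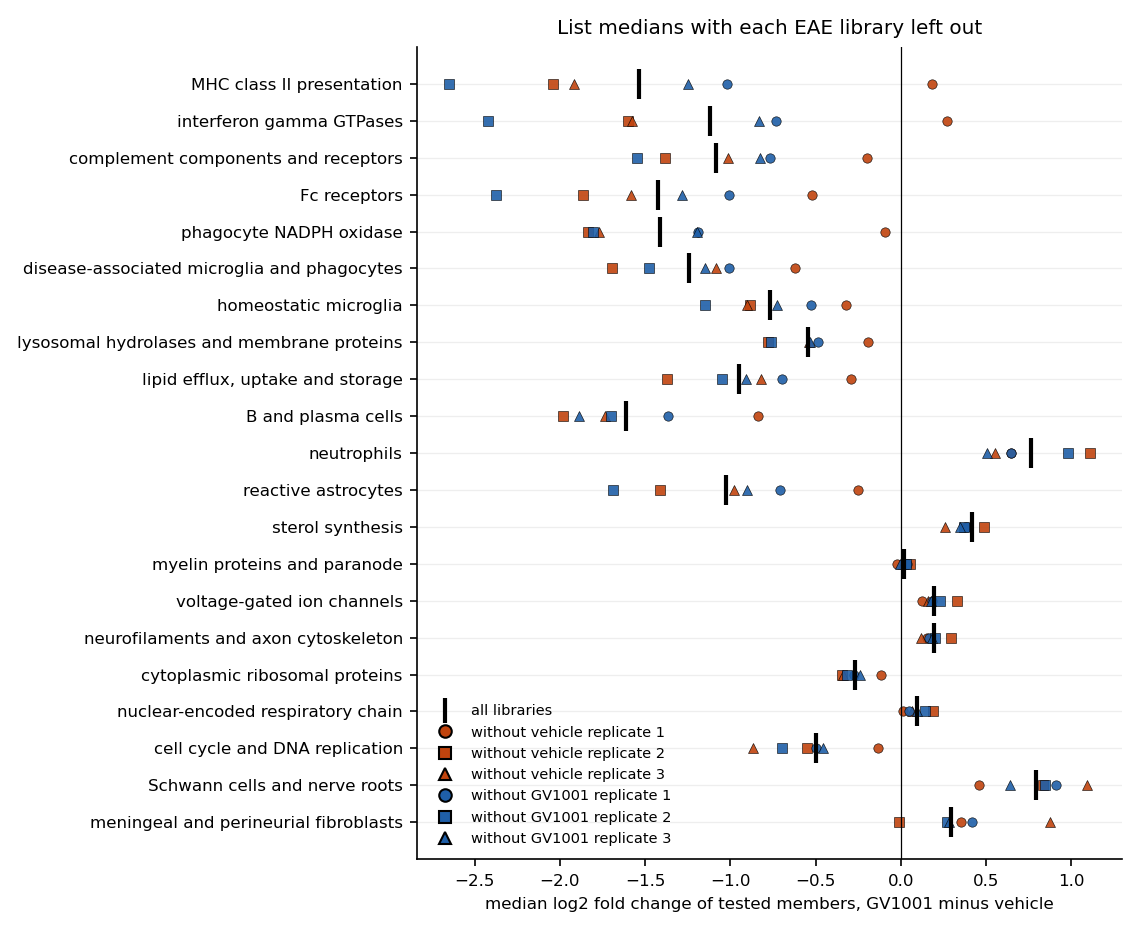
Median log2 fold change of each list on the x axis with all libraries (black bar) and with each EAE library left out (coloured symbols). Points without vehicle replicate 1 lie nearest to or past 0 for most immune lists, with class II presentation at 0.18, while sterol synthesis stays between 0.26 and 0.49.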

How the data were processed

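Whole spinal cord was sequenced in 9 libraries with a QuantSeq 3′ mRNA kit. The authors deposited raw counts per gene symbol. FastQC, STAR, HTSeq and the build GRCm39 are named without versions, per the submitters' processing notes, and the annotation and any use of molecular identifiers are not given in the sources used here. Files of single libraries and the table of all libraries gave identical counts. Without stated strand handling, overlapping genes cannot be told apart.

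Groups came from the sample titles. After filterByExpr (minimum count 10) and TMM scaling, genes were tested with the quasi-likelihood F test of edgeR 4.0.16 (current form) over 9 libraries with 1 coefficient per group, in R 4.3.3. Adjusted p used the Benjamini-Hochberg method (threshold 0.05), and standard errors came from the F statistic. limma 3.58.1 (voom) and DESeq2 1.42.0 stood beside it. CPM are counts scaled to library size with TMM, and log2 CPM used a prior count of 2. Ratios of low counts carry an exact 95% Poisson interval, and a fold against no counts was taken against 3 counts over the group. Intervals and floors cover counting error only. List members were found by symbol, and 61 lists were described by counts and medians with no set test, some of them sharing members. Members, lists and tests were chosen with earlier results of these data known.

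Named genes were the 12 smallest p per direction among genes at 5 CPM or more in a group whose groups did not overlap, DESeq2 calls, per list up to 3 separated members and its most abundant one, genes with 3 or more counts in each library of 1 EAE group and at most 1 count over the other, and 14 fixed genes. Predicted symbols and receptor segments were left out. Of 185 genes so named, those not described are not reported here. Promoters were RefSeq entries matched by symbol.

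The labels do not say that equal replicate numbers mark a batch or litter, so the main fit has no block. Of 9 same-number pairs, 2 correlated above 0.1 after group means were removed. With 3 libraries per group such correlations are constrained, so they do not settle whether the numbers mark a batch. Alternatives covered the tool, scaling, filter, threshold, libraries in the fit, replicate block, covariates and each library left out. Counts were simulated from these libraries for this comparison and 15106 genes. Of genes changed on the log2 scale, 92 of 100 changed by 2 and 54 of 100 changed by 1 were called, with 8 false calls. Each gene was drawn independently around a mean common to all libraries, and only genes at 5 CPM or more were changed. The simulation lacks the order that the real libraries share across lists, so it cannot give the share detected in them. Python 3.11.15 and matplotlib 3.10.9 made the figures.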

Additional observations from a re-analysis of the deposited data

How the results depend on the processing

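The number of genes called in edgeR was 0 with the older quasi-likelihood form, RLE, upper quartile or library-total scaling, no filter or a strict filter, the 6 EAE libraries alone, an adjusted p threshold of 0.1, and in limma-voom. It was 13 in DESeq2 and 2 with muscle and Schwann cell covariates, and ranged from 0 to 8 with each library left out (8 without vehicle replicate 2, 1, Actc1, without GV1001 replicate 3, otherwise 0). The cause was not tested. With the replicate number as a block it was 0, with 586 genes higher and 427 lower at an unadjusted p under 0.05, and 0 with the block in the EAE libraries alone (smallest adjusted p 0.0615). Same-number vehicle and GV1001 libraries had correlations of −0.465, −0.501 and 0.092.

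Counts of genes without overlap ranged from 758 to 913 higher and from 559 to 776 lower over scalings and the strict filter. Scaling moved the median of all genes by less than 0.1, and the sign of 0 of 115 described genes. Covariates gave another sign for 12: Gpnmb 2.48, Asah1 0.10, Cd74 4.05, C1qa 0.63, Fcer1g 0.59, Cybb 2.81, Cybc1 0.043, Jchain 0.99, Mbp −0.19, Mog −0.17, Gfap 0.30 and Nr4a2 −0.075. With each library left out, the log2 fold change ranged from −2.86 to 0.71 for Cd74, from −2.99 to 0.17 for Cybb, from −0.064 to 0.14 for Mbp and from −0.0094 to 0.22 for Mog. The sign changed without vehicle replicate 1 for these 4 genes and, for Mbp, also without GV1001 replicate 3 (−0.023). The range was −2.28 to 0.22 for Hbb-bs, positive without vehicle replicate 2. Counts of list members under these settings were added after seeing the data. At this depth 8 of 30 T cell genes and 8 of 16 B and plasma cell genes had enough counts to be tested, and Tert did not.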
